A study of Bos taurus with 12 samples.

Results

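The 200 genes that took the most sequencing reads in the liver of young Holstein dairy calves are described here, by how much of each library they held, how much they differed from calf to calf, and whether they differed between calves raised under postnatal heat stress and calves given postnatal cooling. Calves were group housed from birth to weaning in both groups. Each of the 12 calves, 6 per group, gave a liver biopsy when 42 days old. Its total RNA was sequenced, and its reads were deposited as counts for 27570 gene identifiers. The members were chosen by their raw counts alone, as the 200 identifiers with the largest count summed over the 12 calves, 0.725% of all identifiers. Left out of the ranking were a run of 41 identifiers that the selection treats as mitochondrial, of which 3 are in the tables used here, and 10 single identifiers, of which 7 are in those tables. Of those 7, 5 had sums large enough to rank among the first 200 of all identifiers.

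Hepatocytes, the main cell type of the liver, make most of the proteins of the blood plasma, among them carriers, clotting factors, protease inhibitors and apolipoproteins, and they carry the enzymes of glucose, amino acid and nitrogen metabolism. As background, a liver RNA library is therefore usually dominated by a small number of genes. Because the reads are a fixed total, a gene that takes a larger share leaves a smaller share for the rest. The tables give Ensembl identifiers without symbols, and a RefSeq gene table paired 0 of the 27570 with a symbol. The members are therefore given by identifier, without their functions. For the same reason the labelled tissue could not be checked against liver markers or the markers of other cell types. Summed counts also grow with the length of a transcript, and no lengths were used, so the order of the members is an order of reads and not of molecules. In bulk tissue, fewer cells of a type and less RNA per cell cannot be told apart.

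Cooled calves 2 and 3 gave near-identical libraries. The root mean square difference of their log2 CPM (counts scaled to a common library total, here corrected by TMM factors) over the 200 members was 0.0682, where the other 65 pairs of calves ran from 0.384 to 1.14. None of the members (0 of 200) differed by more than 2-fold between these 2 calves, against 3 to 85 members in the other pairs, with a median of 21. Whether both came from the same animal is not known, and the shares, the spread by group and the counts of members were also computed with both libraries summed. Library totals ran from 22910846 to 32240168 counts. The members were measured far above counting error, with a mean of at least 13656 counts per calf. The lowest count of any member in any calf was 744, where counting alone gives a coefficient of variation of 3.67%.

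The members held on average 43.5% of all counts. Their share was 43.8% ± 2.80 (SD, n = 6) in cooled calves and 43.1% ± 4.54 (SD, n = 6) in heat-stressed calves. In cooled calves it ran from 40.8% over a median of 43.3% to 47.1%, and in heat-stressed calves from 38.2% over a median of 42.5% to 48.7%. Heat-stressed calves 1, 2 and 6 lay below every cooled calf, calves 3 and 5 above every cooled calf and calf 4 within their range. The difference of means, -0.65 percentage points for heat-stressed minus cooled, was smaller than either SD. With cooled calves 2 and 3 summed it was 0.0181. The precision of a single share was not a limit, since in the shallowest library, heat-stressed calf 6, the Wilson 95% interval was 38.23% to 38.27%, for counting error only. That the members hold much of the library follows from how they were chosen.

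High and low shares were found in both groups. Cooled calves 2 and 3 and heat-stressed calves 3, 4 and 5 gave 47.1%, 47.1%, 47.5%, 45.1% and 48.7% of their counts to the members. The other 7 calves, 4 cooled and 3 heat-stressed, gave between 38.2% and 43.5%. The line between them cuts a graded series. The step across it, from 43.5% to 45.1%, was smaller than that from 41.0% (cooled calf 1) to 43.2% (cooled calf 6). The high cooled calves are the pair of near-identical libraries. The TMM factors moved with the share, at 0.867 to 0.982 in those 5 libraries and 1.002 to 1.09 in the other 7. So did the identifier with the largest sum of all, ENSBTAG00000017121, which is not a member. It held 1.81% to 7.03% of counts in the 5 calves with the high member share and 5.95% to 9.82% in the other 7, with overlap. The part of these quantities in the calves' differences was not tested.

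**Figure D1:**
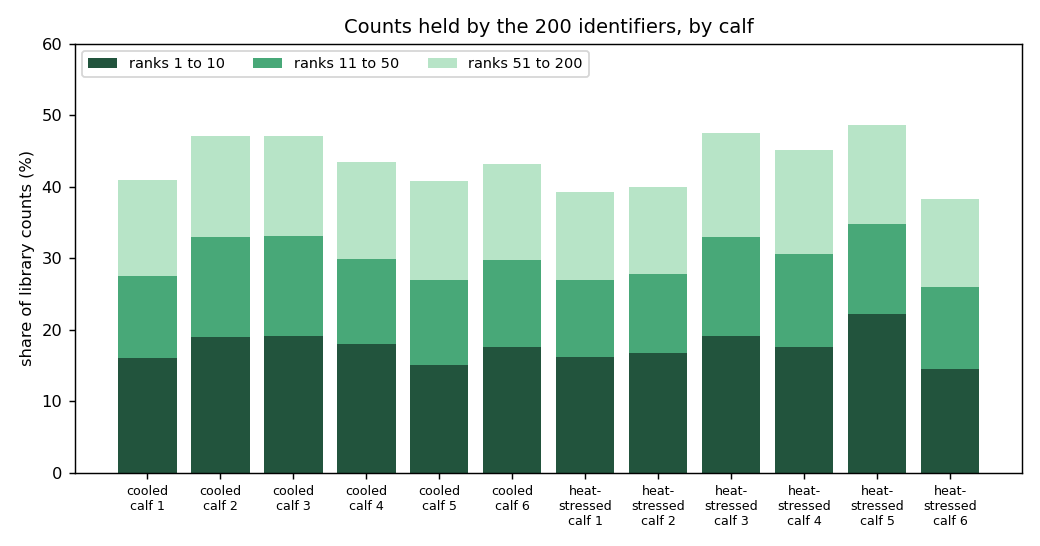
Share of each library's counts (vertical axis, percent) held by the members in 12 calves, stacked by rank: ranks 1 to 10, 11 to 50 and 51 to 200. The total is lowest in heat-stressed calf 6 (38.2%) and highest in heat-stressed calf 5 (48.7%), whose first 10 ranks alone held 22.1%.

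Much of the members' share sat in a few identifiers. The first 10 held 17.6% of all counts on average, the next 40 held 12.4%, and the remaining 150 held 13.5%. The first 10 ranged more widely in heat-stressed calves, from 14.5% to 22.1%, than in cooled calves, from 15.1% to 19.1%. Ranks 51 to 200 held 13.4% to 14.1% in cooled and 12.1% to 14.6% in heat-stressed calves. The ranking of a single calf also lacked the identifiers left out. In heat-stressed calf 5 the first 14 identifiers so ranked reached 25% of all its counts, while heat-stressed calf 6 needed 42. The single identifiers left out held 3.95% of counts in heat-stressed calf 5 and 8.98% in heat-stressed calf 6. Calves of the same group therefore differed in how many of the ranked identifiers made up 25% of counts. How concentrated the whole libraries were was not counted.

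Membership held only in part when each calf was ranked alone. Between 156 (heat-stressed calf 6) and 182 (cooled calf 4) of the members were among the first 200 of a single calf, and 112 were so in all 12 calves. Taken over the 12 calves, 322 identifiers reached the first 200 somewhere, 122 of them not members. Of the members, 23 fell below rank 400 in at least 1 calf and 4 fell below rank 1000. At the edge of the selection the steps were small. ENSBTAG00000019764 and ENSBTAG00000007454, at ranks 199 and 200, had 164342 and 163868 counts in sum, and ENSBTAG00000013162 and ENSBTAG00000009894, just outside, had 163368 and 162820.

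ENSBTAG00000007273 had the largest sum of the members. In cooled calves it stood at 34847 CPM at the lowest, 45679 CPM at the median and 58372 CPM at the highest, and in heat-stressed calves at 25302, 38304 and 54138 CPM. The groups overlapped, and its log2 fold change, heat-stressed over cooled, was -0.17 (SE 0.241), and with 1 calf left out it ran from -0.28 (heat-stressed calf 3) to -0.07 (heat-stressed calf 5). It was the first-ranked member in 8 of the 12 calves when each was ranked alone. In cooled calves 2 and 3 that place went to ENSBTAG00000017280, and in heat-stressed calves 5 and 6 to ENSBTAG00000022120.

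Within the first 10, some identifiers moved together from calf to calf. ENSBTAG00000022120, ENSBTAG00000001638 and ENSBTAG00000006745, at ranks 3, 4 and 5, had correlations between 0.936 and 0.991 in log2 CPM over the 12 calves after each group's mean was removed. These 3 were singled out after their values were seen, and the correlation is a description of libraries that share their depth and scaling. Without heat-stressed calf 5 the correlations were 0.917 to 0.988. Together they held 2.70% of counts in cooled calf 5, the lowest, and 11.5% in heat-stressed calf 5, the highest. The other 10 calves lay between 4.98% and 7.78%.

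ENSBTAG00000022120 shows the levels of this trio. It ran from 11125 CPM over a median of 24353 to 32538 CPM in cooled calves and from 23746 over 30404 to 50072 CPM in heat-stressed calves. Heat-stressed calf 5 was the highest of all 12 calves and cooled calf 5 the lowest, and the other 10 overlapped. The log2 fold changes of the 3 were 0.42 (SE 0.273) for ENSBTAG00000022120, 0.31 (SE 0.305) for ENSBTAG00000001638 and 0.43 (SE 0.27) for ENSBTAG00000006745. Under edgeR's quasi-likelihood test with Benjamini-Hochberg adjustment the adjusted p was 0.564, 0.665 and 0.555. Without heat-stressed calf 5 the log2 fold changes were 0.25, 0.06 and 0.26, and without cooled calf 5 they were 0.27, 0.16 and 0.28.

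A second set of co-varying identifiers was ENSBTAG00000017280, ENSBTAG00000003564 and ENSBTAG00000046540, at ranks 2, 7 and 10, with correlations of 0.88 to 0.963 by the same measure. ENSBTAG00000017280 ran from 21597 over a median of 30254 to 40280 CPM in cooled and from 15422 over 26818 to 42042 CPM in heat-stressed calves. Heat-stressed calves 1, 2 and 6 lay below every cooled calf, and heat-stressed calves 3 and 5 lay above every cooled calf. The group means, 30531 CPM ± 8029 (SD, n = 6) for cooled and 28206 CPM ± 12676 (SD, n = 6) for heat-stressed calves, therefore differed by far less than the calves within the heat-stressed group. Its log2 fold change was -0.11 (SE 0.303). It was -0.03 with cooled calves 2 and 3 summed, 0.011 when heat-stressed calf 1 was left out, and -0.26 when calf 3 of that group was. ENSBTAG00000007273 and ENSBTAG00000022120, at ranks 1 and 3, went opposite ways, with a correlation of -0.744.

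Of the remaining identifiers among the first 10, ENSBTAG00000000522 at rank 6 had the largest difference between group means in log2 terms. The cooled calves averaged 12545 CPM ± 1530 (SD, n = 6) and the heat-stressed calves 8869 CPM ± 4403 (SD, n = 6), and the log2 fold change was -0.50 (SE 0.273, edgeR adjusted p = 0.55). Heat-stressed calves 1, 2, 5 and 6 lay at 5948, 6518, 6535 and 5625 CPM, below the lowest cooled calf at 10177 CPM. Heat-stressed calf 3, at 16293 CPM, lay above the highest cooled calf at 14845 CPM, and heat-stressed calf 4 at 12298 CPM lay inside the cooled range. ENSBTAG00000018843, at rank 9, varied with it (correlation 0.841) and had a log2 fold change of -0.41 (SE 0.266). Without heat-stressed calf 3 these 2 log2 fold changes were -0.77 and -0.65, with edgeR adjusted p of 0.214 and 0.245. ENSBTAG00000008300, at rank 8, was the steadiest of the 10, with an SD of log2 CPM within groups of 0.259 and a range from 4508 to 9084 CPM.

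**Figure D2:**
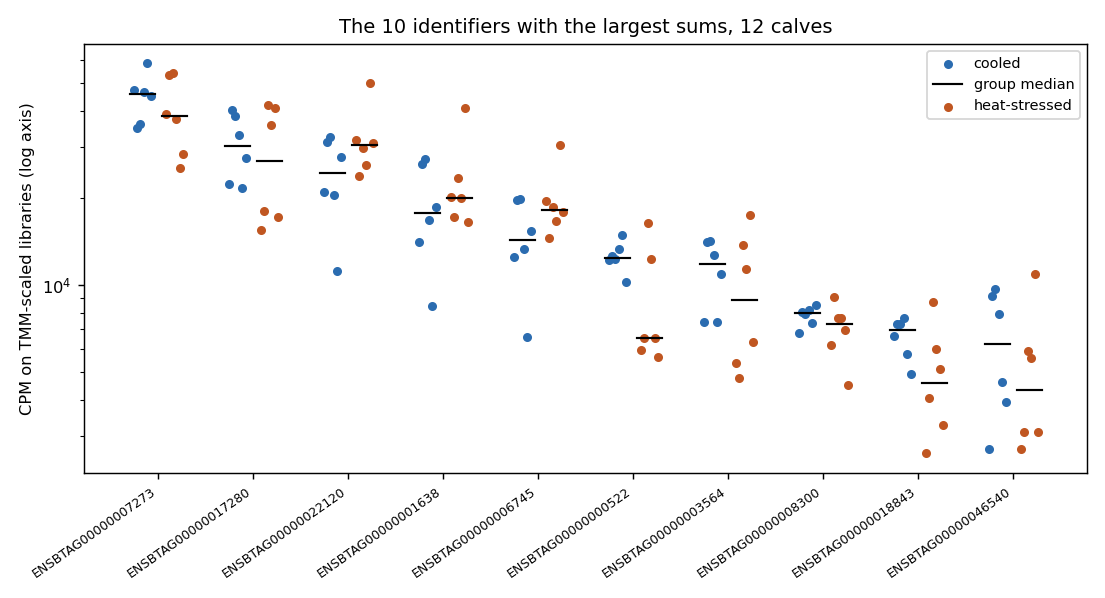
Level of the 10 members with the largest sums (horizontal axis, by rank) in CPM on TMM-scaled libraries (vertical axis, log scale), 6 cooled and 6 heat-stressed calves each. Points are calves and black lines are group medians. The groups overlap for all 10, and heat-stressed calf 5 stands apart at the top for ENSBTAG00000022120, ENSBTAG00000001638 and ENSBTAG00000006745.

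By the SD of log2 CPM the spread between calves was wider for the members than for genes at large. This SD within groups had a median of 0.408 over the members, with an interquartile range of 0.282 to 0.528. Over the next 200 ranks the median was 0.333, over the 600 ranks after those it was 0.323, and over all 14924 genes tested it was 0.258. For 161 of the 200 members the SD was above that last value. The 2 CPM added before taking logs lowers the SD of genes with few counts and hardly that of the members. The biological coefficient of variation that edgeR estimates, which has no such addition, had a median of 0.29 over the members, 0.25 over the next 200 ranks and 0.256 over all genes tested. A range of more than 4-fold between the lowest and the highest calf was seen in 28 members (14%), against 17.1% of all genes tested. This range was taken without the added 2 CPM, so counting error can widen it in genes with few counts. Over the next 200 ranks it was seen in 10%, and over the 600 ranks after those in 7.83%, both below the members. Genes that take much of a library also enter the scaling of the others, and on library totals alone the medians were 0.385 for the members and 0.277 for all genes tested.

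The members ran from near-constant to more than 100-fold apart. The SD was under 0.2 for 12 of them and over 1 for 9. ENSBTAG00000034189, the steadiest, lay between 980.2 and 1233 CPM in all 12 calves. At the other end was ENSBTAG00000026917, at rank 63, where the highest calf stood 198 times above the lowest. These 2 members, and the 2 that follow, were picked for their SD.

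ENSBTAG00000026917 fell into high and low calves in both groups. Cooled calves 1, 4, 5 and 6 stood at 48.7, 58.3, 30.1 and 71.4 CPM, and cooled calves 2 and 3 at 4934 and 4868 CPM. Heat-stressed calves 2, 3 and 6 stood at 46.1, 124.5 and 75.2 CPM, and heat-stressed calves 1, 4 and 5 at 1217, 2923 and 5952 CPM. The calves divided 4 low and 2 high among the cooled, and 3 low and 3 high among the heat-stressed, so the large range was seen within each group. The 2 high cooled calves are the pair of near-identical libraries, and whether they are 1 animal is not known. Its log2 fold change was 0.05 (SE 1.35). The sum over calves placed it among the members through 5 calves. A step of more than 4-fold between neighbouring calves in the order of levels was seen in 2 of the 200 members. It was seen in 21 (0.141%) of all genes tested. These steps include the added 2 CPM, which narrows them in genes with few counts and hardly in the members.

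ENSBTAG00000054808 and ENSBTAG00000022395 had the next largest SDs. ENSBTAG00000054808 ran from 25.1 CPM in cooled calf 1 to 803 CPM in cooled calf 2, and from 200.1 CPM in heat-stressed calf 1 to 2606 CPM in heat-stressed calf 5. In heat-stressed calves 2, 3, 4 and 5 it lay above every cooled calf. Its log2 fold change, 1.65 (SE 0.764), was the largest of the members, with an edgeR adjusted p of 0.527. At its cooled level in both groups its sum would have fallen short of rank 200. It is thus a member only through the heat-stressed calves, and its fold change is no support for a group difference. ENSBTAG00000022395 ran from 97.9 to 2410 CPM in cooled and from 280.4 to 3618 CPM in heat-stressed calves, with overlapping groups. For all 3 of these identifiers heat-stressed calf 5 was the highest of the 12 calves.

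**Figure D3:**
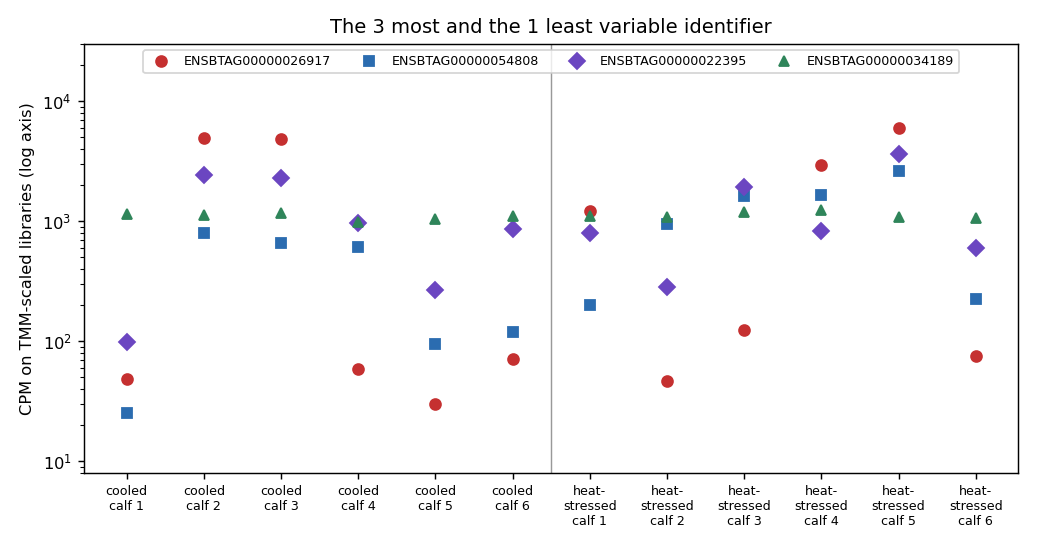
Level of the 3 members with the largest and the 1 with the smallest SD of log2 CPM, by calf, in CPM on TMM-scaled libraries (vertical axis, log scale); the vertical line parts cooled (left) from heat-stressed calves. ENSBTAG00000026917 is above 1000 CPM in 5 calves and at or under 124.5 CPM in 7, while ENSBTAG00000034189 stays between 980.2 and 1233 CPM.

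Part of the members' variation was shared. After each group's mean was removed, the median correlation over 19900 pairs of members was 0.187, with 18.2% above 0.7 and 4.23% below -0.7. The principal components were taken from centred values that were not scaled, so members with a large SD weigh most. The first principal component of their log2 CPM held 47.8% of the variance, the second 23.1% and the third 8.16%. Over the next 200 ranks the first 3 held 47.3%, 15.9% and 10.01%, and over all genes tested 41.5%, 13.1% and 8.96%. Along the first component 143 members rose and 57 fell. Heat-stressed calves 3, 4 and 5 scored 3.89, 4.85 and 7.40, and cooled calves 2 and 3 scored 6.35 and 5.95. Heat-stressed calves 1, 2 and 6 scored -5.85, -6.66 and -7.18, and the cooled calves 1, 4, 5 and 6 lay between -4.61 and 0.483. The 5 high calves are the 5 with the high member share, but both are computed from the same members' counts and are not separate evidence. The group means, 0.59 in cooled and -0.59 in heat-stressed calves, were small against SDs of 4.61 and 6.66. On the second component the cooled mean was 1.99 (SD 3.02) and the heat-stressed mean -1.99 (SD 3.67). The groups were not tested on these scores, which are taken over chosen members.

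Within the groups the heat-stressed calves differed more among themselves. Over the members, the SD of log2 CPM had a median of 0.512 among the 6 heat-stressed calves and 0.256 among the 6 cooled calves. The SD was larger in heat-stressed calves for 161 of 200 members (80.5%), where the same held for 74.1% of all genes tested. The share was 86.5% in the next 200 ranks and 88.7% in the 600 ranks after those, so it was no higher in the members than in the genes ranked next. The SD was larger by at least 2 times in 83 members (41.5%), against 24.8% of all genes tested. It was smaller by at least 2 times in 5, against 2.85% of all genes tested. The genes ranked next were not counted this way. Their median SDs, heat-stressed and cooled, were 0.404 and 0.214 over the next 200 ranks, and 0.385 and 0.207 over the 600 after those. The wider spread was thus not particular to the members. With cooled calves 2 and 3 summed, 164 members had the larger SD in heat-stressed calves, and the medians were 0.511 and 0.253. Without heat-stressed calf 5 the number was 145, or 72.5% against 71.5% of all genes tested.

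**Figure D4:**
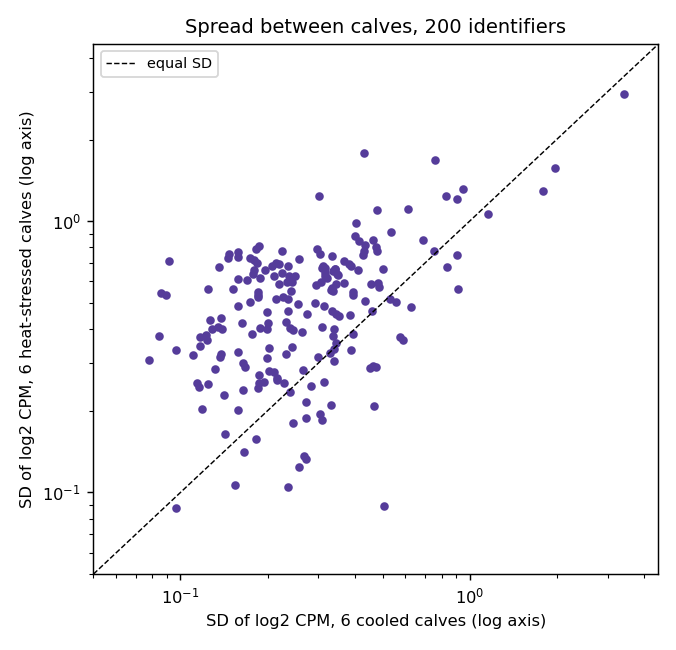
SD of log2 CPM over 6 cooled calves (horizontal axis) and over 6 heat-stressed calves (vertical axis) for each of the 200 members, both on log scales; the dashed line marks equal SD. Most points, 161, lie above the line.

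The extremes came from a few libraries. Heat-stressed calf 3 was the highest of the 12 for 62 members, and heat-stressed calf 1 was the lowest for 54. The first of these numbers depended on the scaling, since heat-stressed calf 3 also had the lowest TMM factor, 0.867. On library totals alone it was highest for 30 members. Heat-stressed calf 1 had the highest TMM factor, 1.091, and its number was not recounted with other scalings. Heat-stressed calves 1, 5 and 6 were more than 2-fold from the member's median over calves for 37, 24 and 22 members, while cooled calf 4 was so for 0. These numbers may depend on the scaling too, and were not recounted.

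The comparison of heat-stressed with cooled calves was run for all 14924 genes with enough counts, all 200 members among them. With edgeR's quasi-likelihood test, 0 members were higher and 0 lower at a Benjamini-Hochberg adjusted p under 0.05, as were 0% of all genes tested in each direction. At an unadjusted p under 0.05 there were 11 members (5.5%), with 8 higher and 3 lower under heat stress. Of all genes tested 9.37% passed, 5.09% higher and 4.28% lower. The members' share was below the background in this fit. With cooled calves 2 and 3 summed it was 5% against 6.58%. With DESeq2 it was 8% against 7.84% of all genes with a count, a wider set than the genes tested here. Of the 14924 genes tested, 1532 passed with DESeq2, a larger fraction than the 16 of 200 members. On library totals alone 16 members passed (8%), 8 higher and 8 lower, against 9.92% of all genes tested. With limma-voom 18 passed (9%), 8 higher and 10 lower, against 10.3%, so the split by direction depended on the scaling and the tool. Single libraries moved the number too. Without heat-stressed calf 3 it was 30, 6 higher and 24 lower, against 17.1% of all genes tested. It was 6 without cooled calf 4, and 7 without cooled calf 5, heat-stressed calf 1 or heat-stressed calf 2. The share of all genes tested was then 6.56%, 7.29%, 5.69% and 6.33%.

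Fold changes among the members were small on the whole. The median log2 fold change was -0.07, with quartiles of -0.26 and 0.15, beside 0.003 over all genes tested. It was above 0 in 87 members (43.5%), where 50.4% of all genes tested were above 0. The median SE was 0.236, larger than the 0.204 over all genes tested, although the members had far more counts. The 95% interval of the fold change, not adjusted for the number of genes, lay within 2-fold either way for 177 members (88.5%), against 82.9% of all genes tested. It lay within 1.5-fold for 54 (27%), against 37.7%. For most members a change of 2-fold was thus outside the interval, and for most a change of 1.5-fold was not.

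ENSBTAG00000007049, at rank 141, had the smallest p of the members. The cooled calves 1 to 6 stood at 595.8, 517.1, 522.3, 452.9, 401.6 and 544 CPM, and the heat-stressed calves 1 to 6 at 801.4, 1059, 846, 831.9, 630.4 and 639.5 CPM. All 6 heat-stressed calves lay above the highest cooled calf. The cooled calves averaged 505.6 CPM ± 68.7 (SD, n = 6) and the heat-stressed calves 801.4 CPM ± 158.1 (SD, n = 6), and the log2 fold change was 0.66 (SE 0.166, edgeR adjusted p = 0.524). DESeq2 over all genes with a count gave an adjusted p of 0.0494, the only call among the members by that tool, where it called 0.0331% of genes higher and 0.0284% lower. With cooled calves 2 and 3 summed, the edgeR adjusted p was 0.707. Over all alternatives run, the adjusted p of this member ran from 0.0494 to 0.834.

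ENSBTAG00000004688, at rank 169, had the smallest p in the other direction. The cooled calves 1 to 6 stood at 561, 825.4, 814.6, 578.3, 636 and 615.2 CPM, and the heat-stressed calves 1 to 6 at 459.6, 361, 527.5, 443.7, 453.6 and 415.7 CPM. All 6 heat-stressed calves lay below the lowest cooled calf, and the 2 highest cooled values are those of the pair of near-identical libraries. Group means were 671.7 CPM ± 117.9 (SD, n = 6) for cooled and 443.5 CPM ± 54.8 (SD, n = 6) for heat-stressed calves, and the log2 fold change was -0.60 (SE 0.156, edgeR adjusted p = 0.524). It was -0.53 with that pair summed.

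The second identifiers in each direction were ENSBTAG00000002255 and ENSBTAG00000007843. ENSBTAG00000002255, at rank 78, ran from 912.3 over a median of 1099 to 1257 CPM in cooled calves and from 1303 over 1491 to 1639 CPM in heat-stressed calves, without overlap. Its log2 fold change was 0.44 (SE 0.149). ENSBTAG00000007843, at rank 52, was tight in cooled calves, between 2182 and 2550 CPM, and wide in heat-stressed calves, between 646 and 2920 CPM. Of the heat-stressed calves, 5 lay below every cooled calf and 1, calf 4, above every cooled calf. Its log2 fold change was -0.63 (SE 0.272), and the edgeR adjusted p of both was 0.524.

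The groups did not overlap in 3 members with heat-stressed calves above and 1 with them below, beside 0.168% and 0.221% of all genes tested. The 4 are ENSBTAG00000007049, ENSBTAG00000002255 and ENSBTAG00000018469 above, the last singled out for this separation, and ENSBTAG00000004688 below. ENSBTAG00000018469, at rank 198, ran from 358 over 409.3 to 509.2 CPM in cooled and from 516.6 over 559.1 to 612.1 CPM in heat-stressed calves. None of these 4 passed the edgeR adjustment over all genes tested. None of the first 50 ranks was among them.

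**Figure D5:**
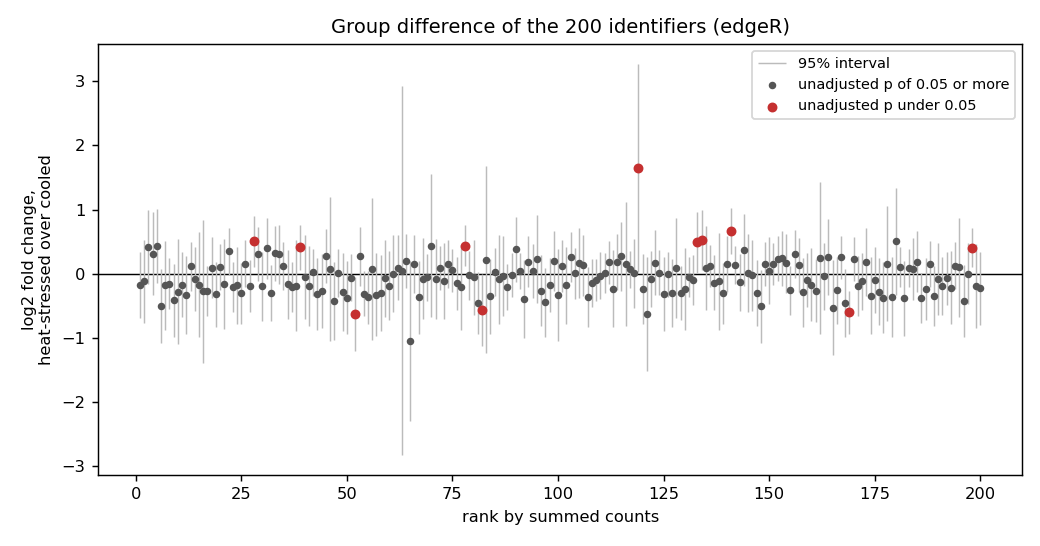
Log2 fold change, heat-stressed over cooled (vertical axis), of the 200 members by rank of summed counts (horizontal axis), with 95% intervals from edgeR. The 11 red points have an unadjusted p under 0.05, 8 above and 3 below 0, and 0 of the 200 passed an adjusted p under 0.05.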

How the data were processed

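The authors deposited whole-number read counts per gene identifier, 1 table per calf, with no normalization. The submitters' processing notes name FastQC 0.11.7 and Trim Galore 0.4.4, as well as HISAT2 and HTSeq without versions, and the build ARS-UCD1.2. The annotation release and strand setting are not given in these sources, so reads of overlapping genes or near-identical copies may be shared between identifiers.

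Groups were taken from the treatment label, and calves were numbered in listing order. That libraries come from separate animals rests on the series description, and otherwise the spread behind the p-values would in part be technical. The members and lists were chosen with earlier results of these data known. Genes were kept with filterByExpr (14924 of 27570) and fitted over all 12 calves with edgeR 4.0.16 in R 4.3.3 (TMM, estimateDisp, glmQLFit, glmQLFTest, two-sided, Benjamini-Hochberg over all genes tested, threshold 0.05). The SE was the absolute fold change over the root of F. CPM used TMM-scaled libraries, with 2 CPM added before log2. Alternatives used DESeq2 1.42.0, limma 3.58.1, other scalings, no filter, other numbers of members, and leaving out each calf. The fits were also run on simulated counts of independent libraries with the same dispersion in both groups. That setting lacks the wider heat-stressed spread and the near-identical pair, so it does not check the p-values under them. Without symbols, the members named were the 10 largest sums, 2 on each side of rank 200 and the 2 smallest p in each direction. A further 4 members were picked for their SD and 1 for the separation of the groups, after their values were seen. The gene lists and cell type markers could not be used. Python 3.11.15, numpy 2.4.6 and scipy 1.17.1 were used for the summaries.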

Additional observations from a re-analysis of the deposited data

Results flagged for a closer look

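For 23 quantities, namely the shares of counts, the principal component scores and the named members' levels, the farthest calf of each group was examined by its gap to the nearest other calf over the range of the group. In 3 of 46 groups this exceeded the 95% critical value of Dixon's test, and chance alone flags about 1 in 20. All 3 were the same library, heat-stressed calf 5, in 3 members that vary together. ENSBTAG00000022120 stood at 50072 CPM there and between 23746 and 31809 CPM in the other heat-stressed calves. ENSBTAG00000001638 stood at 41066 CPM, against 16438 to 23406 CPM. ENSBTAG00000006745 stood at 30456 CPM, against 14472 to 19426 CPM.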

How the results depend on the processing

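The count of 0 members higher and 0 lower at an adjusted p under 0.05 held with 3 other scalings, no filter and limma-voom. It held with the identifier run or the most abundant identifier removed, cooled calves 2 and 3 summed, and each calf left out (0 to 0). An adjusted p under 0.1, 100 or 400 members and members ranked by mean share only re-read the main fit. There the smallest edgeR adjusted p over all genes tested was 0.524, so these could give no other count. DESeq2 called 1 higher, and at an unadjusted p there were 8 higher and 3 lower. The number at an unadjusted p under 0.05, 11 in the main fit, was 18 with limma-voom and ran from 6 to 30 when 1 calf was left out. The cause was not tested. Leaving out 1 calf gave a difference in the members' share between -1.77 and 0.327 percentage points, a median SD between 0.386 and 0.428, and 145 to 169 members with the larger SD in heat-stressed calves. Of 294 fold changes of the 14 members named for their sum or p, under 21 alternatives, 1 changed sign, that of ENSBTAG00000017280 without heat-stressed calf 1 (0.011, within -0.26 to 0.011 over the calves left out), and 1 passed 0.05, that of ENSBTAG00000007049 with DESeq2. The alternatives for the number at an unadjusted p and for the SDs by group, the removal of the most abundant identifier and the scalings for heat-stressed calf 3 were chosen after seeing the data. No paired analysis was possible because the labels give no pairing of calves. Depth gave the members a counting coefficient of variation of at most 3.67%.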
